A study of Mus musculus with 16 samples.

Results

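The enzymes that write and erase methylation of histone H3 at lysine 4 (H3K4) outside the Set1 complexes were followed in mouse embryonic stem (ES) cells with and without Cfp1, at rest and after doxorubicin. The set was fixed by name and holds 10 of the 22375 genes in the deposited tables. It comprises the MLL-type methyltransferases Kmt2a, Kmt2b, Kmt2c and Kmt2d, the MLL cofactor menin (Men1), the LSD1-type demethylases Kdm1a and Kdm1b, and the KDM5-type demethylases Kdm5a, Kdm5b and Kdm5c. In the annotation of the tables Kmt2a, Kmt2b, Kmt2c and Kmt2d carry the older names Mll1, Wbp7, Mll3 and Mll2. All 10 were found, and all 10 passed the filter on low counts.

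WT cells were E14TG2a ES cells, a feeder-independent line, and Cfp1-null cells were ES cells of genotype Cfp1 -/-, both given as strain 129/OLA. Both were grown on gelatin in serum with LIF, the cytokine that maintains self-renewal. Untreated cells of each line were compared with cells given doxorubicin, a DNA-damaging agent, for 6 hours. The protocol gives a dose of 1 µM, whereas the treatment label of the samples reads 1 mM. Total RNA depleted of ribosomal RNA was sequenced in 2 biological replicates of each of the 4 groups, each in 2 technical runs. Genotype and line cannot be told apart, because each genotype is represented by 1 line.

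H3K4 trimethylation marks the promoters of active genes and many CpG islands in ES cells. Cfp1 (encoded by Cxxc1) binds unmethylated CpG through its CXXC domain and belongs to the Set1 complexes, which place most of this mark. Kmt2a and Kmt2b also carry CXXC domains and work with menin at selected promoters, whereas Kmt2c and Kmt2d mainly monomethylate H3K4 at enhancers. Kdm1a and Kdm1b remove mono- and dimethylation by oxidation, and the KDM5 enzymes remove di- and trimethylation.

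The counts used summed to between 11772320 and 29422711 per library. Cxxc1, the targeted gene, was at 38.9 to 56.0 CPM (counts per 1000000 counts of the library, with library sizes adjusted by TMM) in the 4 WT libraries and at 4 counts or fewer in each Cfp1-null library. The 4 DNA damage response genes Cdkn1a, Mdm2, Btg2 and Ccng1 all rose with doxorubicin in both lines, and 3 of the 4 were also higher in untreated Cfp1-null than in untreated WT cells. The summed level of 8 ES cell markers was 3211 to 4390 CPM in untreated WT and 3508 to 3587 CPM in untreated Cfp1-null libraries, against 1282 to 1732 CPM and 1222 to 1503 CPM with doxorubicin, where 7 of the 8 fell in WT and 6 of 8 in Cfp1-null cells. Of the 8, 1 was higher and 3 were lower in untreated Cfp1-null than in untreated WT cells, and 1 was higher and 1 lower with doxorubicin. Summed markers of fibroblasts (6 genes) reached at most 24.7 CPM, of mesoderm (4 genes) 15.9 CPM and of primitive endoderm (5 genes) 4.38 CPM in any library, with no marker at or under 3 counts in all libraries. With doxorubicin 2 of 6 fibroblast markers rose in either line, no primitive endoderm marker was called in WT and 2 of 4 tested rose in Cfp1-null cells, and of 4 mesoderm markers 2 rose and 1 fell in WT and 1 rose and 1 fell in Cfp1-null cells. Of the 3 neuroectoderm markers found (of 4 listed), the sum was 131 to 177 CPM in untreated WT and 38.9 to 55.7 CPM in untreated Cfp1-null libraries, 56.3 to 162 CPM in treated WT and 22.2 to 27.3 CPM in treated Cfp1-null libraries, and 2 of the 3 were lower in Cfp1-null cells under either condition. These sums hide opposite differences between replicates 1 and 2 of untreated WT cells. Pax6 was at 82.2 and 34.4 CPM there, Nes at 47.9 and 142 CPM and Zic1 at 0.476 and 0.632 CPM. With doxorubicin 1 of the 3 fell in WT cells, and 1 rose and 1 fell in Cfp1-null cells. Of the fibroblast markers 3 were lower in untreated and 1 in treated Cfp1-null than in WT cells, and 1 mesoderm marker was lower in untreated Cfp1-null cells. Over all genes 27.0% rose and 22.8% fell with doxorubicin in WT, and 27.7% and 21.4% in Cfp1-null cells (edgeR adjusted p under 0.05). Between the lines 18.7% were higher and 17.2% lower untreated, and 2518 and 1900 of 15762 genes with doxorubicin. The part of the marker shifts in the values below was not tested. In bulk RNA, fewer cells of a type and less RNA per cell cannot be told apart.

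One technical run touched the set directly. In the second run of replicate 1 of treated Cfp1-null cells Men1 fell from 739 counts in the first run to 0, and Kdm5c from 2168 to 0. Among genes with at least 200 counts in the first run, 209 of 291 on chromosome 19, 225 of 280 on the X chromosome and 5 of 5 on the Y chromosome were at 0 there, against 0 of 7744 on other chromosomes. That run was left out of every value in the text unless stated. In the second run of replicate 1 of treated WT cells no such gap was seen, but its counts differed from those of the first run by more than sampling noise (chi-square over its degrees of freedom 9.61, and 0.998 to 1.05 in the 6 undisturbed pairs). Kdm1a was the member most affected, at 305 CPM in the first and 210 CPM in the second run (both scaled to total counts).

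**Figure D1:**
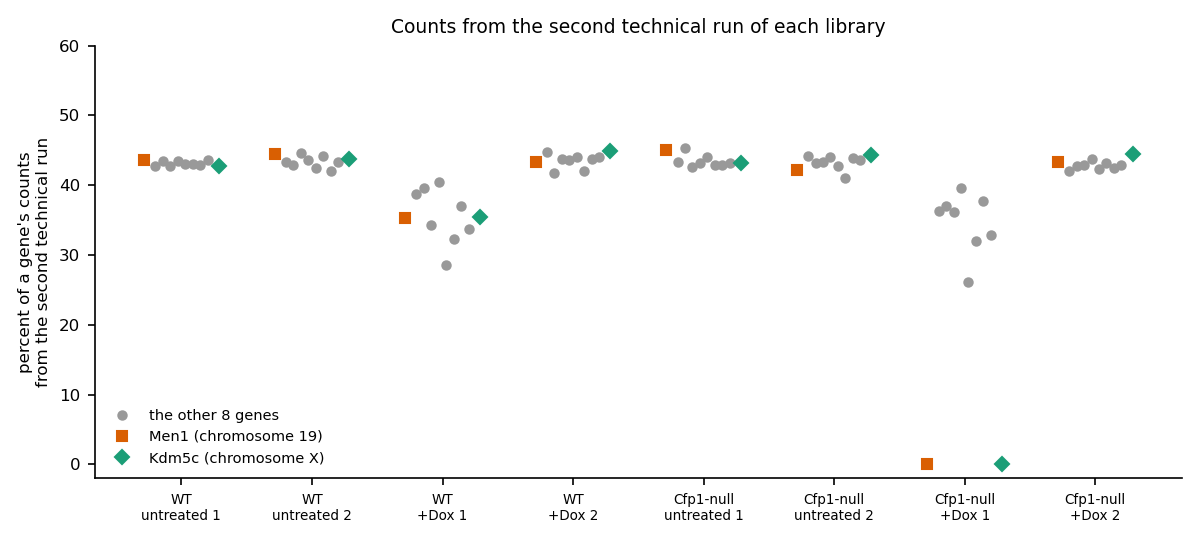
Share of each gene's counts (percent, vertical axis) that came from the second technical run, for the 8 libraries along the horizontal axis (number, biological replicate). Grey points are 8 members, squares Men1 and diamonds Kdm5c. Men1 and Kdm5c are at 0 in replicate 1 of treated Cfp1-null cells alone, and the members scatter more widely in replicate 1 of treated WT and treated Cfp1-null cells than elsewhere.

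Of the 10 members, 8 have a promoter entry in RefSeq (table of build GRCm38.p6), and these windows were located in NCBIM37, the build of the deposited tables, by exact match. The 250 bases upstream of the RefSeq start are printed for the LSD1 pair, whose transcripts moved in opposite directions with doxorubicin, and for Kmt2c, called in the 4 comparisons of groups. All 3 read 5′ to 3′ on the strand of the gene with CpG in capitals, the dinucleotide that CXXC domains recognise when unmethylated. The Kdm1a window lies at chr4:136158639-136158888 (reverse strand), the Kdm1b window at chr13:47138618-47138867 (forward strand) and the Kmt2c window at chr5:25004602-25004851 (reverse strand).
Kdm1a: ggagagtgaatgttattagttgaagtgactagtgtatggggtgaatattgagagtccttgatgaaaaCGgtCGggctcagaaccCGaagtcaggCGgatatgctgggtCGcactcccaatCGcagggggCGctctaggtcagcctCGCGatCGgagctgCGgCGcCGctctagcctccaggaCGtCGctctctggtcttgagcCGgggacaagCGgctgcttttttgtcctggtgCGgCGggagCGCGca
Kdm1b: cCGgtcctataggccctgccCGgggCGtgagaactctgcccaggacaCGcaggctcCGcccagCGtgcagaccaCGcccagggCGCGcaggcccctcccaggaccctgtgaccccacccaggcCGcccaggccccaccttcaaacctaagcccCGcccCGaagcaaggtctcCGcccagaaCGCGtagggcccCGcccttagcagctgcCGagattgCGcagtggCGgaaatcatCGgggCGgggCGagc
Kmt2c: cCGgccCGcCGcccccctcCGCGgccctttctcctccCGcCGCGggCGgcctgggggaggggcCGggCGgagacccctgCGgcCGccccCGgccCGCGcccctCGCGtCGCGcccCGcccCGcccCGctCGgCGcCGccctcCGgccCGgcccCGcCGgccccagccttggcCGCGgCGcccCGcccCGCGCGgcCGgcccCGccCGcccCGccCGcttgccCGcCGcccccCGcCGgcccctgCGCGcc
The Kmt2c window held 48 CpG, more than 99.8% of the 32851 RefSeq promoter windows of this length. Kdm1a and Kdm1b held 21 and 22 CpG, more than 83.7% and 85.2% of windows. Kmt2a held 29, Kmt2d 26, Kdm5b 13 and Kdm5c 10 CpG, and the 3 entries of Men1 held 8, 9 and 10, against a median of 6 over all windows.

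In untreated WT cells 4 of the 5 erasers were the most abundant transcripts of the set, and the fifth, Kdm1b, was the least abundant. Per kilobase of exon, Kdm5b led with 120 ± 22.3 CPM per kb (mean ± SD, n = 2 in this and every group), followed by Kdm1a with 83.4 ± 2.49, Kdm5c with 36.1 ± 1.44 and Kdm5a with 21.9 ± 0.346 CPM per kb. No pair of neighbours among these 4 overlapped between libraries. Kmt2c (15.4 ± 5.40), Kmt2a (12.7 ± 0.601) and Men1 (12.6 ± 1.11 CPM per kb) overlapped each other in turn. The same held for Kmt2b (10.1 ± 0.877), Kmt2d (9.66 ± 0.408) and Kdm1b (9.58 ± 0.742 CPM per kb) at the bottom. Kdm5b, Kdm1a and Kdm5c took the top 3 places, in this order, in all 4 groups. Kdm1b was last in both untreated groups, and reached the fourth place in treated WT and the fifth place in treated Cfp1-null cells.

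**Figure D2:**
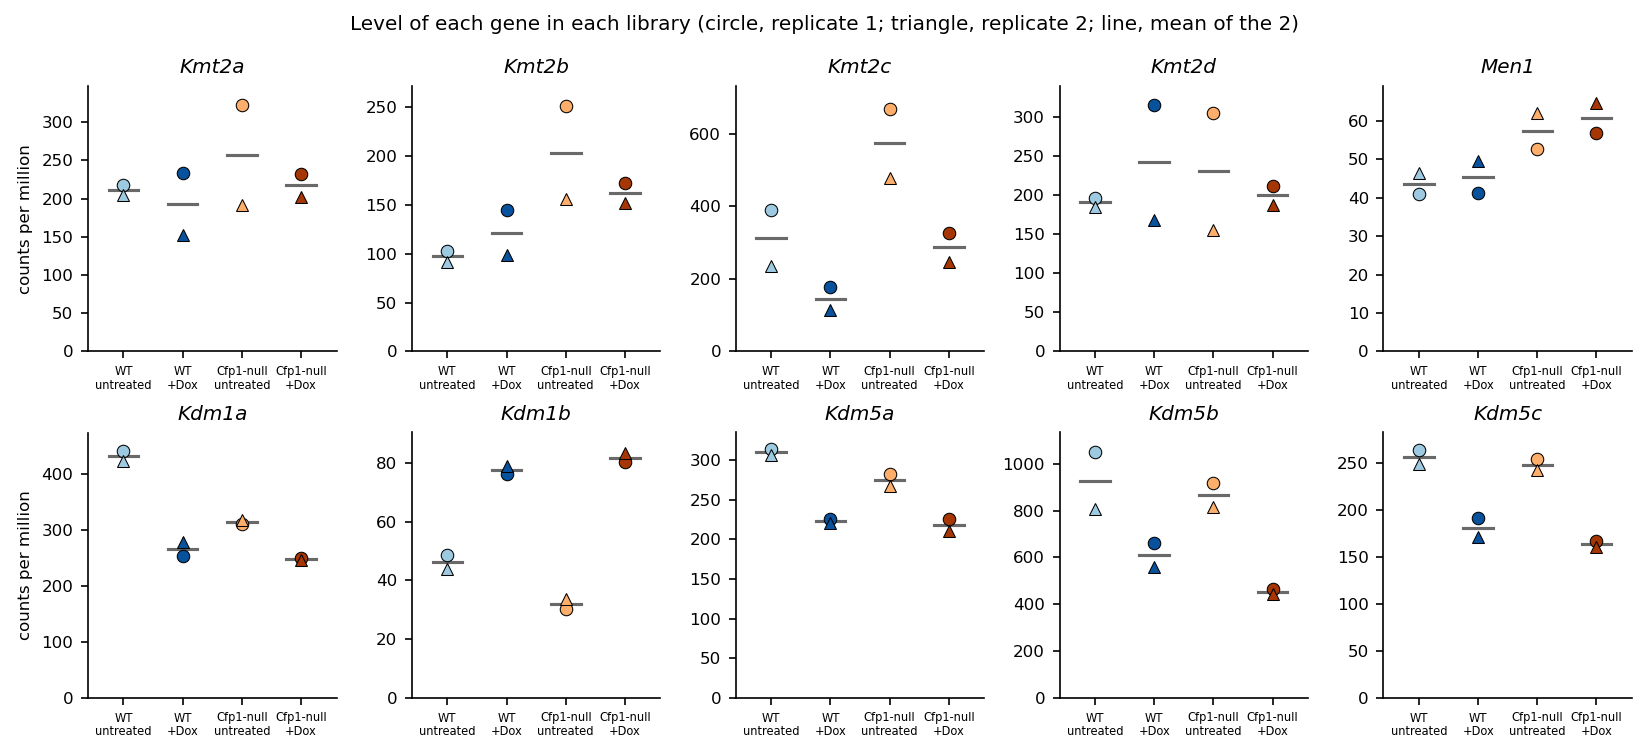
CPM (vertical axis, from 0, scaled by TMM) of the 10 genes in the 8 libraries, by group along the horizontal axis. Circles are replicate 1, triangles replicate 2 and lines the mean. Kdm1b is higher and Kdm1a, Kdm5a, Kdm5b, Kdm5c and Kmt2c are lower with doxorubicin in both lines without overlap.

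The first question was how the set responded to DNA damage in cells with Cfp1. In WT cells 6 of the 10 members were called (edgeR adjusted p under 0.05 over 15762 genes), with 1 higher and 5 lower, against a background of 49.7% of all genes tested, 27.0% higher and 22.8% lower. Kdm1b alone rose, and Kmt2c, Kdm1a, Kdm5a, Kdm5b and Kdm5c fell. Kmt2a, Kmt2b, Kmt2d and Men1 were not called. None of the 10 met the study's added limits of a 2.5-fold change and a mean of 200 normalized counts, which 7.76% of genes met. The median log2 fold change of the set was -0.30, against 0.06 over all genes tested. Of all calls 54.2% were higher, and 75.1% when libraries were scaled by total counts, which moved the median of all genes to 0.37. With that scaling 2 members were higher and 2 lower, and the median of the set was 0.01.

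Among the methyltransferases Kmt2c (ENSMUSG00000038056, chr5:24777612-25004601), the catalytic subunit of an enhancer complex, gave the clearest response. Its level was 390 and 235 CPM in untreated WT libraries and 177 and 115 CPM with doxorubicin. Both treated libraries lay below both untreated ones, and replicate 1 was the higher in each group. Kmt2c fell by 1.10 on the log2 scale (SE 0.29, edgeR adjusted p = 0.0105). The call was lost without replicate 1 of untreated WT (adjusted p = 0.0736) or without replicate 2 of treated WT cells (adjusted p = 0.0611), and the drop was then 0.69 or 0.83.

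Kmt2a (ENSMUSG00000002028, chr9:44611438-44689379), the founding MLL gene, was at 218 and 204 CPM in untreated and at 234 and 153 CPM in treated WT libraries. The treated pair spanned the untreated pair. The log2 fold change was -0.13 (95% confidence interval -0.69 to 0.43). Kmt2b (ENSMUSG00000006307, chr7:31353877-31373745), its CXXC-bearing relative that acts at bivalent promoters, was at 103 and 91.3 CPM untreated and 144 and 98.3 CPM treated. Its groups overlapped and the log2 fold change was 0.32 (-0.21 to 0.85). Kmt2d (ENSMUSG00000048154, chr15:98662100-98701614), the closest relative of Kmt2c, was at 197 and 186 CPM untreated and 316 and 169 CPM treated. The treated replicates differed 1.87-fold, and the log2 fold change of 0.34 had an interval of -0.38 to 1.07. These intervals hold changes of over 1.5-fold in at least one direction. With scaling by total counts Kmt2b was called (log2 fold change 0.63, edgeR adjusted p = 0.0431).

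Men1 (ENSMUSG00000024947, chr19:6334979-6340891) encodes the scaffold that joins Kmt2a and Kmt2b to chromatin. It was at 40.9 and 46.3 CPM in untreated and 41.1 and 49.7 CPM in treated WT libraries. The groups overlapped, with a log2 fold change of 0.06 (-0.29 to 0.41).

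The LSD1 pair moved in opposite directions. Kdm1a (ENSMUSG00000036940, chr4:136106455-136158638), the CoREST-bound demethylase, was at 441 and 423 CPM in untreated and 254 and 278 CPM in treated WT libraries. Kdm1a fell by 0.70 on the log2 scale (SE 0.11, edgeR adjusted p = 0.000592), and by 0.62 without the second run of replicate 1 of treated WT cells. Kdm1b (ENSMUSG00000038080, chr13:47138868-47179982), which lacks the CoREST-binding tower and acts over gene bodies and imprinted loci, was at 48.8 and 43.7 CPM untreated and 76.4 and 79.1 CPM treated. Neither gene overlapped between groups, and replicates lay within a few CPM of each other for Kdm1b. Kdm1b rose by 0.75 on the log2 scale (SE 0.13, edgeR adjusted p = 0.00103).

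The 3 KDM5 genes fell together in WT cells. Kdm5b (ENSMUSG00000042207, chr1:136456748-136529454), the most abundant of the set, was at 1050 and 806 CPM untreated and 663 and 561 CPM treated. Kdm5b fell by 0.60 (SE 0.15, edgeR adjusted p = 0.00913), a call lost without replicate 1 of untreated WT (adjusted p = 0.0834) or replicate 2 of treated WT cells (adjusted p = 0.0545). Kdm5a (ENSMUSG00000030180, chr6:120314117-120394592), a partner of the retinoblastoma protein, was at 314 and 307 CPM untreated and 225 and 220 CPM treated. It fell by 0.48 (SE 0.11, edgeR adjusted p = 0.00463). Of its exons 276 bases (1.95%) lie under exons of Ccdc77 on the opposite strand, and the counting was stranded. Kdm5c (ENSMUSG00000025332, chrX:148667563-148709078), an X-linked demethylase, was at 264 and 249 CPM untreated and 191 and 171 CPM treated. It fell by 0.50 (SE 0.11, edgeR adjusted p = 0.00461). All 3 fold changes stayed negative when libraries were scaled by total counts (-0.16 for Kdm5a, -0.29 for Kdm5b and -0.19 for Kdm5c, with a median of 0.37 over all genes), and none of the 3 was then called (adjusted p from 0.138 to 0.209). The falls of Kmt2c and Kdm1a and the rise of Kdm1b stayed called under that scaling.

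The second question was whether cells without Cfp1 responded alike. In Cfp1-null cells the same 6 members were called in the same directions, 1 higher and 5 lower, against a background of 49.1% of genes, 27.7% higher and 21.4% lower. Of all calls 56.4% were higher, and 71.0% with scaling by total counts, under which 1 member was higher and 3 were lower. Kdm1b was the 1 member that met the study's added limits, which 7.24% of genes met. The treated and untreated groups did not overlap for 6 members in either line, against 73.0% of genes in WT and 77.6% in Cfp1-null cells.

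Kdm1b was at 30.2 and 33.7 CPM in untreated and 80.2 and 83.4 CPM in treated Cfp1-null libraries, 2.56-fold higher (log2 fold change 1.36, SE 0.13, edgeR adjusted p = 4.39e-05). Treated libraries of the 2 lines lay close to each other, and the untreated Cfp1-null libraries lay below all others. Kdm1a was at 310 and 318 CPM untreated and 250 and 246 CPM treated. It fell by 0.34 (SE 0.11, edgeR adjusted p = 0.0251), a call that was lost whichever of the 4 Cfp1-null libraries was left out (adjusted p from 0.0528 to 0.127) and with scaling by total counts (adjusted p = 0.342).

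Kdm5b was at 919 and 817 CPM in untreated and 464 and 445 CPM in treated Cfp1-null libraries, and fell by 0.93 (SE 0.15, edgeR adjusted p = 0.000913). Kdm5c was at 254 and 242 CPM untreated and 167 and 161 CPM treated, and fell by 0.60 (SE 0.11, edgeR adjusted p = 0.0019). For both genes every treated library of either line lay below every untreated one. Kdm5a was at 282 and 267 CPM untreated and 225 and 211 CPM treated. It fell by 0.33 (SE 0.11, edgeR adjusted p = 0.0257), and this call was lost without any 1 of the 4 Cfp1-null libraries (adjusted p from 0.0503 to 0.165), with all 16 runs (adjusted p = 0.0618) and with scaling by total counts (adjusted p = 0.344).

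Kmt2c was at 670 and 479 CPM in untreated and 327 and 247 CPM in treated Cfp1-null libraries and fell by 1.00 (SE 0.29, edgeR adjusted p = 0.0164). The call was lost without replicate 1 of untreated (adjusted p = 0.0988) or replicate 2 of treated Cfp1-null cells (adjusted p = 0.132). Kmt2a (323 and 191 CPM untreated, 232 and 203 CPM treated), Kmt2b (251 and 156 CPM untreated, 173 and 152 CPM treated) and Kmt2d (306 and 156 CPM untreated, 212 and 188 CPM treated) overlapped between groups and were not called. The treated values of Kmt2a and Kmt2d lay inside the span of the untreated ones. Men1, on the runs that covered chromosome 19, was at 52.6 and 62.0 CPM untreated and 56.8 and 64.6 CPM treated, with a log2 fold change of 0.08 (-0.26 to 0.43).

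**Figure D3:**
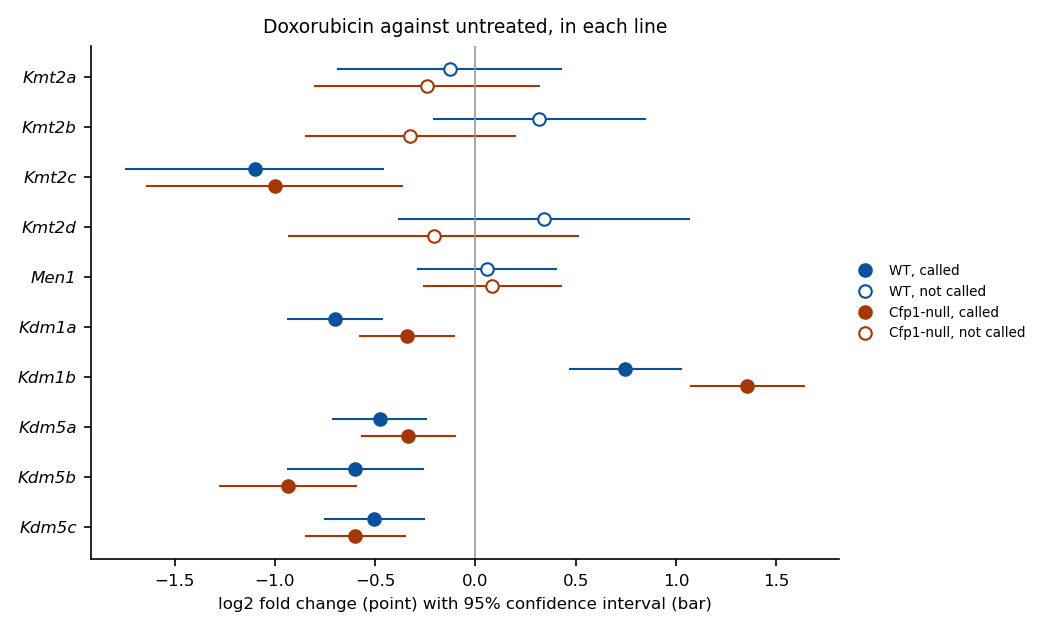
Log2 fold change with doxorubicin (horizontal axis) of the 10 genes in WT (blue, upper) and Cfp1-null cells (brown, lower), with 95% confidence intervals as bars. Filled points passed an edgeR adjusted p of 0.05. The same 6 genes are filled in both lines, and Kdm1b alone lies to the right of 0 among them.

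The 2 responses were then compared directly by their interaction. None of the 10 members was called, against a background of 0.247% of genes. At an unadjusted edgeR p under 0.05 there were 2 members, Kdm1a and Kdm1b, against 1809 of 15762 genes. None of the 10 was called by DESeq2 or with the replicate block, which called 246 and 352 genes. The response of Kdm1b was higher in Cfp1-null cells by 0.61 on the log2 scale (95% confidence interval 0.21 to 1.01, edgeR unadjusted p = 0.00723, adjusted p = 0.245). That of Kdm1a differed by 0.36 (0.02 to 0.70, edgeR unadjusted p = 0.0395, adjusted p = 0.411). The differences were -0.64 for Kmt2b, -0.33 for Kdm5b, -0.11 for Kmt2a and 0.10 for Kmt2c. That of Kmt2b was the largest in size of the 10, but its edgeR unadjusted p was not under 0.05. The intervals of Kdm5a (-0.19 to 0.48), Kdm5c (-0.45 to 0.26) and Men1 (-0.47 to 0.51) included 0, as did that of Kmt2d (-1.58 to 0.48). These widths do not show that the lines responded alike.

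Ratios within a library do not depend on the scaling between libraries. Kdm1b made up 10.6% and 9.98% of the summed Kdm1a and Kdm1b level per kb in untreated WT and 9.46% and 10.2% in untreated Cfp1-null libraries. With doxorubicin it made up 24.4% and 23.4% in WT and 25.6% and 26.7% in Cfp1-null libraries. The 4 treated libraries lay well above the 4 untreated ones. In untreated cells the 2 lines overlapped, although both genes were lower in the Cfp1-null line.

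Within the KDM5 group Kdm5b held 64.7% to 69.6% of the summed level per kb in untreated WT and 66.6% to 68.0% in untreated Cfp1-null libraries. It held 64.7% and 66.7% in treated WT and 60.3% and 60.5% in treated Cfp1-null libraries, the lowest shares of the 8. The share of Kmt2c in the summed Kmt2a, Kmt2b, Kmt2c and Kmt2d level per kb was 36.2% and 27.1% in untreated and 16.2% and 16.8% in treated WT libraries. In Cfp1-null libraries it was 35.1% and 39.9% untreated and 27.5% and 24.5% treated. In treated WT cells Kmt2c was thus the least abundant of the 4, in both libraries.

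The summed Kmt2 level per kb was 0.273 and 0.266 of the summed Kdm5 level per kb in untreated WT libraries. It was 0.42 and 0.30 in treated WT, 0.540 and 0.374 in untreated Cfp1-null and 0.593 and 0.524 in treated Cfp1-null libraries. Each other group lay above untreated WT without overlap, and treated WT and untreated Cfp1-null overlapped. The Kdm5 sum leaves out the Y-linked Kdm5d, which had 3 or 4 counts in WT libraries. In Cfp1-null libraries Kdm5d was at 48.0 and 56.3 CPM untreated and 28.5 and 31.6 CPM treated. Adding it would lower the ratio in the Cfp1-null groups. The replicates of treated WT and untreated Cfp1-null cells differed most, with replicate 1 the higher.

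**Figure D4:**
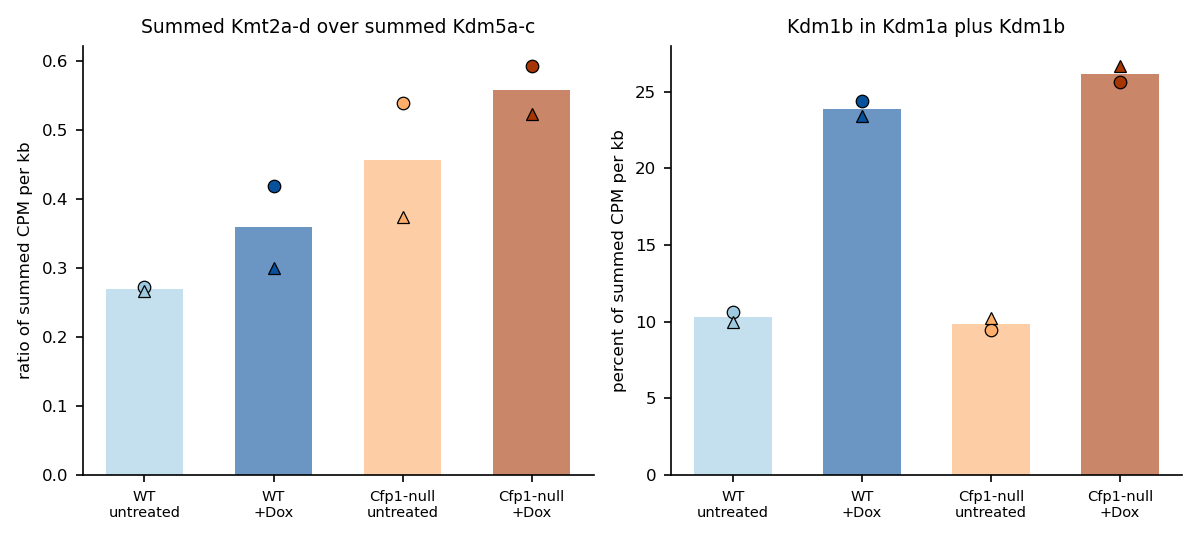
Left, summed level per kb of Kmt2a, Kmt2b, Kmt2c and Kmt2d over that of Kdm5a, Kdm5b and Kdm5c, without Kdm5d (ratio, vertical axis). Right, Kdm1b as percent of the summed Kdm1a and Kdm1b level per kb. Bars are means of 2 libraries, circles replicate 1 and triangles replicate 2. The ratio is lowest in untreated WT (0.266 and 0.273), and the Kdm1b share is 9.46% to 10.6% in untreated and 23.4% to 26.7% in treated libraries.

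The third question was how the set differed between the Cfp1-null and the WT line, where genotype and line cannot be told apart. In untreated cells 4 of the 10 members differed between Cfp1-null and WT, against a background of 35.9% of genes. Kmt2b and Kmt2c were higher (18.7% of genes were) and Kdm1a and Kdm1b lower (17.2% of genes were) in Cfp1-null cells. None met the study's added limits, which 3.22% of genes met. Of all calls 52.1% were higher, and 70.4% with scaling by total counts, which moved the median of all genes from 0.01 to 0.20. The groups did not overlap for 6 members, against 70.0% of genes. The median log2 fold change of the set was 0.11, against 0.01 over all genes. With scaling by total counts 3 members were higher and none lower in Cfp1-null cells, and the median of the set was 0.30.

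Kmt2b, at 103 and 91.3 CPM in WT, was at 251 and 156 CPM in Cfp1-null libraries, 2.09-fold higher (log2 fold change 1.06, SE 0.24, edgeR adjusted p = 0.00769). Kmt2b lies on chromosome 7, where the median of the other 1282 genes was 0.53 and 76.4% were above 0, and the median of the 60 genes within 1 Mb was 0.49. Kmt2b stood 0.53 above the median of its chromosome, at its 74.1 percentile. The part of the chromosome in the value was not tested.

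Kmt2c was at 390 and 235 CPM in WT and at 670 and 479 CPM in Cfp1-null libraries, with a log2 fold change of 0.88 (SE 0.28, edgeR adjusted p = 0.0374). On chromosome 5 the median was -0.10 and that of the 26 genes within 1 Mb was -0.22. The call was lost without replicate 2 of untreated WT or replicate 1 of untreated Cfp1-null cells (adjusted p = 0.193 in either case). Kmt2a (log2 fold change 0.28, 95% confidence interval -0.28 to 0.84) and Kmt2d (0.27, -0.45 to 1.00) overlapped between the lines. Their replicates in untreated Cfp1-null cells differed 1.69-fold and 1.96-fold.

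Men1 was higher in both Cfp1-null libraries than in both WT libraries, 52.6 and 62.0 against 40.9 and 46.3 CPM, but its log2 fold change of 0.40 (0.05 to 0.74) did not pass (edgeR adjusted p = 0.0722). It passed with the replicate number as a block (adjusted p = 0.0167) and with scaling by total counts (adjusted p = 0.0185). The median of the other 545 genes on chromosome 19 was 0.29. The other 7 chromosomes that carry a single further member, and the X chromosome, had medians between -0.16 and 0.04.

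Kdm1a was lower in Cfp1-null cells by a log2 fold change of -0.46 (SE 0.11, edgeR adjusted p = 0.00899), and Kdm1b by -0.53 (SE 0.13, edgeR adjusted p = 0.0103). Neither overlapped between the lines. Both calls were lost without replicate 1 of untreated WT (adjusted p = 0.0616 for Kdm1a and 0.0769 for Kdm1b), without replicate 1 of untreated Cfp1-null cells (0.0603 and 0.0834) and with scaling by total counts (0.0714 and 0.0684). The KDM5 genes were not called, with log2 fold changes of -0.17 for Kdm5a (-0.41 to 0.06), -0.10 for Kdm5b (-0.44 to 0.24) and -0.05 for Kdm5c (-0.30 to 0.20), all 3 of which turned positive with scaling by total counts.

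With doxorubicin 1 of the 10 members was called between the lines, Kmt2c, against a background of 28.0% of genes. Of all calls 57.0% were higher, and 67% with scaling by total counts. None met the study's added limits, which 2.58% of genes met. The lines did not overlap for 7 members, against 66.9% of genes. These 7 included Kdm1a and Kdm1b, whose log2 fold changes were -0.10 (-0.34 to 0.14) and 0.07 (-0.21 to 0.36).

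Kmt2c was at 177 and 115 CPM in treated WT and 327 and 247 CPM in treated Cfp1-null libraries, with a log2 fold change of 0.98 (SE 0.29, edgeR adjusted p = 0.0315). It stood at the 89.2 percentile of its chromosome. The call was lost without replicate 2 of treated WT (adjusted p = 0.159), replicate 1 of treated Cfp1-null (0.179) or replicate 2 of treated Cfp1-null cells (0.0659). With the replicate block 4 members were called, as Kmt2b (adjusted p = 0.0216), Men1 (0.0151) and Kdm5b (0.00925) were added. The block called 6127 of 15762 genes in this comparison. Without the block Kmt2b had a log2 fold change of 0.42 (edgeR adjusted p = 0.212), below the median of 0.45 on chromosome 7, and Men1 of 0.42 (adjusted p = 0.0724), with a chromosome 19 median of 0.22. Kdm5b had -0.43 (adjusted p = 0.0619), with 464 and 445 CPM in treated Cfp1-null against 663 and 561 CPM in treated WT libraries, and passed in DESeq2 (adjusted p = 0.0323). The 2 comparisons between lines and the 2 responses share libraries, so their values are not independent of each other.

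**Figure D5:**
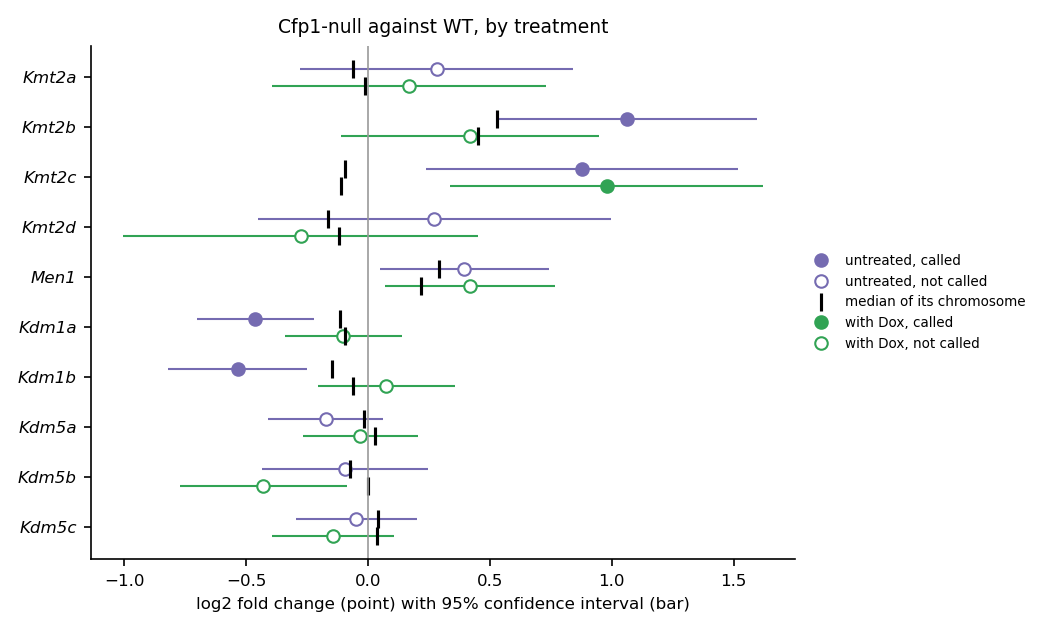
Log2 fold change of Cfp1-null against WT cells (horizontal axis) for the 10 genes, untreated (purple, upper) and with doxorubicin (green, lower), with 95% confidence intervals as bars. Filled points passed an edgeR adjusted p of 0.05, and black ticks mark the median of the other genes on the same chromosome. Ticks for Kmt2b and Men1 lie right of 0 (0.53 and 0.29 untreated), and Kmt2c lies right of its own tick in both comparisons.

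Replicate 1 exceeded replicate 2 for all 4 Kmt2 genes in all 4 groups, by 1.06-fold to 1.96-fold. For Kmt2c the ratio was 1.66, 1.55, 1.40 and 1.32 in untreated WT, treated WT, untreated Cfp1-null and treated Cfp1-null cells. For Kmt2d it was 1.06, 1.87, 1.96 and 1.13. Kdm5a, whose exons are also long at 14.2 kb against 9.60 to 20.3 kb in the Kmt2 genes, had ratios of 1.02 to 1.07, and Men1 had ratios of 0.829 to 0.883, below 1 in every group. Kdm5b had ratios of 1.30, 1.18, 1.13 and 1.04, and in untreated WT cells its ratio was above those of Kmt2a (1.07), Kmt2b (1.13) and Kmt2d. Over the 1072 tested genes with at least 9 kb of exon, the median log2 ratio of replicate 1 to 2 was 0.02, 0.15, 0.14 and -0.00 in the same order, against 0.00 over all genes in each group. The part of transcript length in the spread was not tested.

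The partners of the members were read from lists of other genes. Of 11 subunits and cofactors of MLL and COMPASS complexes, 1 rose and 8 fell with doxorubicin in WT cells, with a median log2 fold change of -0.66, and the same numbers, 1 and 8, with a median of -0.68, in Cfp1-null cells. Over all genes 27.0% were higher and 22.8% lower in WT, and 27.7% and 21.4% in Cfp1-null cells. With scaling by total counts the calls in WT were 1 higher and 4 lower (median -0.34), and none of the 9 genes changed direction. Among them were Kdm6a, an H3K27 demethylase of the Kmt2c and Kmt2d complexes (-1.14, edgeR adjusted p = 5.65e-05), Psip1, which tethers the menin complex (-0.95, adjusted p = 0.000805), and Wdr5, a core subunit (-0.87, adjusted p = 0.00088), whereas Hcfc2 rose (0.88, adjusted p = 0.0141). Between the untreated lines Rbbp5 was higher in Cfp1-null cells (0.54, adjusted p = 0.0171), and Psip1 (-0.50, adjusted p = 0.0304), Ash2l (-0.48, adjusted p = 0.0418) and Kdm6a (-0.46, adjusted p = 0.0129) were lower. The calls of Psip1, Ash2l and Kdm6a between the untreated lines were lost with scaling by total counts (adjusted p of 0.155, 0.192 and 0.079). Ash2l lies on chromosome 8, and the part of the chromosome in its value was not tested. Over all genes 18.7% were higher and 17.2% lower between the untreated lines. With doxorubicin none of the 11 was called between the lines by edgeR, DESeq2 or with the replicate block. Over all genes 28.0% were called by edgeR, 4235 genes by DESeq2 and 6127 with the block. At an unadjusted edgeR p under 0.05 there was 1 of the 11, against 6430 of 15762 genes.

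Of 12 partners of Kdm1a and Kdm1b, 3 rose and 6 fell with doxorubicin in WT cells (median -0.31), and 4 rose and 5 fell in Cfp1-null cells (median -0.18), against the shares of all genes given above. With scaling by total counts 4 were higher and 4 lower in WT cells, with a median of 0.01. Phf21a, the CoREST complex reader of unmethylated H3K4, showed the largest change of this list in WT cells. It was at 103 and 79.2 CPM untreated and 25 and 20.2 CPM treated, and fell by 2.02 on the log2 scale (SE 0.18, edgeR adjusted p = 2.7e-05). Zmym3 (-1.77, edgeR adjusted p = 0.0158) and the CoREST scaffold Rcor2 (-1.76, adjusted p = 0.000366) also fell, and Gse1 rose (1.40, adjusted p = 0.000174). Of the 12, 3 were lower in untreated Cfp1-null cells than in WT and none was higher: Phf21a (-1.0, edgeR adjusted p = 0.00232), Zmym2 (-0.94, adjusted p = 0.000544) and the CoREST scaffold Rcor1 (-0.67, adjusted p = 0.0141). Over all genes 17.2% were lower and 18.7% higher between the untreated lines. With doxorubicin 3 were lower in Cfp1-null cells and none was higher, against 1900 lower and 2518 higher of 15762 genes.

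Of 9 genes listed as other H3K4 methyltransferases and demethylases, 1 rose and 3 fell with doxorubicin in WT cells (median 0.14). In Cfp1-null cells 1 rose and 4 fell (median -0.33). Over all genes 27.0% were higher and 22.8% lower in WT, and 27.7% and 21.4% in Cfp1-null cells. In WT cells Prdm9, a meiotic methyltransferase, rose (0.91, edgeR adjusted p = 0.0369, DESeq2 adjusted p = 0.0599), and Kmt2e (-0.98, adjusted p = 0.00153), Smyd3 (-0.65, adjusted p = 0.0161) and Riox1 (-0.50, adjusted p = 0.0327) fell. With only the groups compared in the fit, the calls of Prdm9, Smyd3 and Riox1 were lost (adjusted p of 0.0885, 0.0527 and 0.0609). Scaling by total counts gave 4 higher and 1 lower in WT cells. Between the untreated lines 3 were higher and 1 lower in Cfp1-null cells, against 18.7% and 17.2% of all genes. With doxorubicin 1 was higher and 1 lower, against 2518 and 1900 of 15762 genes. Setd1a, a catalytic subunit of the Set1 complex to which Cfp1 belongs, was at 25.7 and 25.8 CPM in untreated WT and 57.1 and 42.0 CPM in untreated Cfp1-null libraries (log2 fold change 0.95, edgeR adjusted p = 0.00386). Like Kmt2b it lies on chromosome 7. Setd1b, the alternative catalytic subunit, was at 24.2 and 15.1 CPM against 83.9 and 29.4 CPM (1.52, edgeR adjusted p = 0.0379, DESeq2 adjusted p = 0.0787), and Setd7, a monomethyltransferase, was lower (-1.64, edgeR adjusted p = 0.00176).

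Kdm5d, the Y-linked relative of Kdm5c, separated the lines. It had 4, 3, 3 and 3 counts in the 4 WT libraries and 1082, 1408, 371 and 672 counts in untreated and treated Cfp1-null libraries. The Cfp1-null levels were 48.0 and 56.3 CPM untreated and 28.5 and 31.6 CPM treated, so the KDM5 group held 3 expressed members in the WT line and 4 in the Cfp1-null line. Kdm5c was at 171 to 264 CPM in the WT libraries in which Kdm5d had 3 or 4 counts, so few Kdm5c reads were counted on Kdm5d.

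Of 11 readers of H3K4 trimethylation, 1 rose and 6 fell with doxorubicin in WT cells (median -0.69), and 1 rose and 5 fell in Cfp1-null cells (median -0.48), against 27.0% of all genes higher and 22.8% lower in WT and 27.7% and 21.4% in Cfp1-null cells. With scaling by total counts 1 was higher and 4 were lower in WT cells (median -0.37). Phf8, a demethylase that binds the mark, rose (1.53, edgeR adjusted p = 2.16e-05), and Spin1 (-1.31, adjusted p = 4.31e-05), the remodeller Chd1 (-1.24, adjusted p = 4.99e-05) and Ing5 (-1.0, adjusted p = 0.000448) fell. Between the untreated lines Taf3, the TFIID subunit that binds the mark, was higher in Cfp1-null cells (0.58, edgeR adjusted p = 0.0371). Spin1 (-0.77, adjusted p = 0.00173), Ing1 (-0.74, adjusted p = 0.003) and Chd1 (-0.70, adjusted p = 0.00255) were lower. Like Ash2l, Ing1 lies on chromosome 8, and the part of the chromosome in its value was not tested. Over all genes 18.7% were higher and 17.2% lower between the untreated lines. With doxorubicin 1 reader was higher and 3 were lower in Cfp1-null cells, against 2518 higher and 1900 lower of 15762 genes. No gene of these 4 lists was called for the difference of the 2 responses (0.247% of all genes were). At an unadjusted edgeR p under 0.05 there were 0, 2, 1 and 1 in the order of the lists above, against 1809 of 15762 genes. No gene of the 4 lists was called by DESeq2 or with the replicate block, which called 246 and 352 genes. Among the genes named from these lists, leaving out 1 library ended the calls of Prdm9, Smyd3, Riox1, Zmym3 and Hcfc2 in the WT response and of Rbbp5, Psip1, Ash2l, Kdm6a, Rcor1, Setd1b and Taf3 between the untreated lines. The highest adjusted p was 0.359, for Setd1b without replicate 1 of untreated Cfp1-null cells.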

How the data were processed

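After rRNA depletion and stranded library preparation, the authors mapped read pairs to NCBIm37 with STAR (version 2.2.1 per the labels). Reads on Ensembl exons were counted by HTSeq-count in its stranded union mode, which drops reads shared by genes. They deposited raw counts per technical run, and a signal of counts divided by DESeq size factors per biological replicate, used here as an alternative level only. Runs were summed (15 of 16), which leaves n = 2 per group. Nothing states that replicates were separate cultures, so p-values measure the spread between these samples. All 8 libraries were fitted in edgeR 4.0.16 (R 4.3.3; filterByExpr, TMM, glmQLFit, glmQLFTest, Benjamini-Hochberg over 15762 genes, common dispersion 0.0283), and the fit was tested on simulated data. CPM are scaled by TMM, and levels per kb divide by the exon length in the annotation. Older symbols were matched through RefSeq synonyms, and 84 of 85 listed symbols were found. Same-numbered replicates deviated together (r from 0.133 to 0.453 over the 6 pairs of groups), so the replicate block was read as pairing them, although no source states what they share. Members and lists were chosen with earlier results of these data known. Beyond the members, genes past the threshold in the WT response or the untreated comparison of the lines were named, at most 4 per list and comparison by the size of the fold change, with Kdm5d given as counts.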

Additional observations from a re-analysis of the deposited data

How the results depend on the processing

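Each alternative changed 1 choice in the edgeR fit, except DESeq2's Wald test, which replaced scaling, dispersion, filter and test together. With the replicate block the difference of the responses was called in 352 genes, against 39 without it. Between the lines with doxorubicin 4 members instead of 1 were called, and 6127 genes instead of 4418. The block also added Men1 between the untreated lines, where it called 7163 genes instead of 5651, and changed no other call of a member. DESeq2's Wald test called 246 genes for the difference of the responses, and no filter on low counts 228. The study's added limits left 1223 genes and 0 members in the WT response, 1141 genes and 1 member in the Cfp1-null response, 507 genes and 0 members between the untreated lines, and 406 genes and 0 members between the treated lines. Between the treated lines 2 members were called with DESeq2's size factors, scaling by total counts, DESeq2, no filter, and only the groups compared. The 10 members gave 440 values under alternatives that kept all replicates, of which 8 lost and 11 gained a call and 13 turned in sign, none of them called on either side.

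With scaling by total counts the values that turned were 0.19 for Kmt2a in the WT response, 0.0064 for Kmt2d in the Cfp1-null response, -0.0046 for Kmt2c and -0.081 for Men1 in the difference of the responses, 0.017, 0.094 and 0.14 for Kdm5a, Kdm5b and Kdm5c between the untreated lines, and 0.055 for Kdm5a between the treated lines. Scaling by total counts leaves out the TMM factors, which were 0.857 and 0.852 in untreated and 1.07 and 1.06 in treated WT libraries. Members far from 0 moved in the same way without turning. In the WT response Kdm5a went from -0.48 to -0.16 and Kdm5b from -0.60 to -0.29. What lay behind the different factors was not tested. With all 16 runs Men1 turned to -0.17 in the Cfp1-null response and to -0.23 in the difference, because 1 run holds no Men1 counts, and Kdm5a to 0.0059 between the treated lines. With the first runs alone Men1 turned to -0.026 in the difference and Kdm5a to 0.0074 between the treated lines. The share of Kdm1b in the Kdm1 level of treated Cfp1-null cells was 27.0% with the deposited normalized counts and 26.2% otherwise. The deposited counts cover both technical runs of each library, including the run left out elsewhere. The Kmt2 to Kdm5 ratios moved by less than 1 SD. Scaling between libraries cannot change a ratio or share within a library, so this alternative does not test them. In treated Cfp1-null cells the deposited counts also include the run without Kdm5c counts. Kdm5c was at 2214 and 3294 deposited normalized counts in replicates 1 and 2 there.

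Without 1 replicate at a time, where a lone library is assumed to vary like the other groups, the Cfp1-null response ranged from 4608 called genes (without replicate 2 of treated Cfp1-null cells) to 8166, and from 3 to 6 called members. The lowest count came without replicate 1 of untreated or replicate 2 of treated Cfp1-null cells. The difference of the responses ranged from 0 to 20 called genes, with 0 without replicate 1 of untreated or either replicate of treated Cfp1-null cells. Between the untreated lines the range was 3471 to 6053 genes and 1 to 4 members, with 1 member without replicate 1 of untreated Cfp1-null and 2 without replicate 1 of untreated WT cells. Between the treated lines it was 1641 to 4518 genes and 0 to 2 members, with 0 without replicate 2 of treated WT or either replicate of treated Cfp1-null cells. Values that turned in sign came from uncalled genes. In the WT response they ranged from -0.47 to 0.14 for Kmt2a, -0.18 to 0.72 for Kmt2d and -0.090 to 0.18 for Men1. In the Cfp1-null response they ranged from -0.58 to 0.17 for Kmt2a, -0.64 to 0.042 for Kmt2b, -0.62 to 0.34 for Kmt2d and -0.046 to 0.20 for Men1. In the difference they ranged from -0.45 to 0.30 for Kmt2a, -0.36 to 0.44 for Kmt2c and -0.11 to 0.16 for Men1. Between the untreated lines they ranged from -0.12 to 0.61 for Kmt2a, -0.27 to 0.68 for Kmt2d, -0.28 to 0.12 for Kdm5b and -0.092 to 0.0024 for Kdm5c. Between the treated lines they ranged from -0.11 to 0.50 for Kmt2a, -0.66 to 0.23 for Kmt2d and -0.091 to 0.018 for Kdm5a.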
